A study of Mus with 4 samples.

Results

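Pseudouridine (Ψ), an isomer of uridine, was mapped in mouse cochlear tissue, and the transcripts described here came from 4 protein-coding genes that hold small nucleolar RNA (snoRNA) genes within their bounds, Rps12, Taf1d, Rabggtb and 2410002F23Rik. All rows of the deposited site table that carried 1 of these gene names were taken, which gave 15 of the 755 sites and 4 of the 465 genes. The genes were selected on the levels and numbers of sites seen earlier in the same table, so that levels are described without a test. The labels describe RESTART v3 mice and untreated mice, 2 samples each. RESTART v3 is a guide snoRNA system delivered to convert the uridine of a premature stop codon into Ψ. All mice, untreated ones included, carried Otof c. 1315 C > T (p.R439X), a nonsense change in the otoferlin gene. Values were at hand for untreated replicates 1 and 2, and RESTART v3 mice were not analysed here. These values are headed OTOF-/- 1 and OTOF-/- 2, and were matched to the untreated samples because the headings name no RESTART. The sample labels themselves do not say that the allele is homozygous. The age of the mice and the number pooled per sample are not given in the labels. Nothing in the labels says that the replicates came from separate animals, while the study states at least 2 biological replicates for every experiment. Which animals these samples came from is not given, and part of their spread may be technical. The table holds sites and no expression values, and cochlear marker genes were thus not checked.

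SnoRNAs are short nuclear RNAs that guide chemical modification of other RNAs. Those of the H/ACA class direct Ψ formation, whereas those of the C/D class direct ribose methylation. In vertebrates most of them lie in introns of host genes and are trimmed from the spliced-out intron, and many hosts encode ribosomal proteins or other parts of the translation machinery. Rps12 encodes a protein of the small ribosomal subunit. Taf1d encodes a subunit of the selectivity factor that recruits RNA polymerase I to ribosomal DNA. Rabggtb encodes the beta subunit of the enzyme that attaches geranylgeranyl lipids to Rab proteins. No role is given here for 2410002F23Rik.

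The description of these genes as hosts held in RefSeq's list of genes (assembly GRCm38.p6), which was used for names and neighbourhood only. Rps12 held 3 snoRNA genes (Snora33, Snord100 and LOC115487513). Rabggtb also held 3 (Snord45b, Gm24494 and Snord45c), 2410002F23Rik held 4 (Snord88a, Snord88c and 2 with LOC names), and Taf1d held 6 with LOC names and 1 microRNA gene (Gm25500). That table gives no strand and no exons. Whether a site lay in an exon, an intron retained in the listed transcript or an untranslated region was not resolved. Whether it lay in 1 of the snoRNA genes inside the host was not tested either, because the coordinates of that table belong to another assembly than those of the sites. Whether the reads behind a level came from the host mRNA or from an snoRNA within it was not tested.

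PRAISE, the assay used, treats RNA with sulfite and bisulfite so that reverse transcriptase skips Ψ and leaves a deletion in the read. Each sample had a library with this chemistry and a control library without it. The level of a site is the share of reads with a deletion in the chemistry library minus that in the control library, in percentage points. A run of adjacent positions, such as 500 to 502, is 1 site with 1 level, because the deletion cannot be placed within it. Of the 15 sites, 8 were runs of up to 3 positions and 7 were single positions. Levels ranged from 5.24% at Rps12 positions 489 to 490 in replicate 2 to 82.6% at Rps12 positions 500 to 502 in the same replicate.

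**Figure D1:**
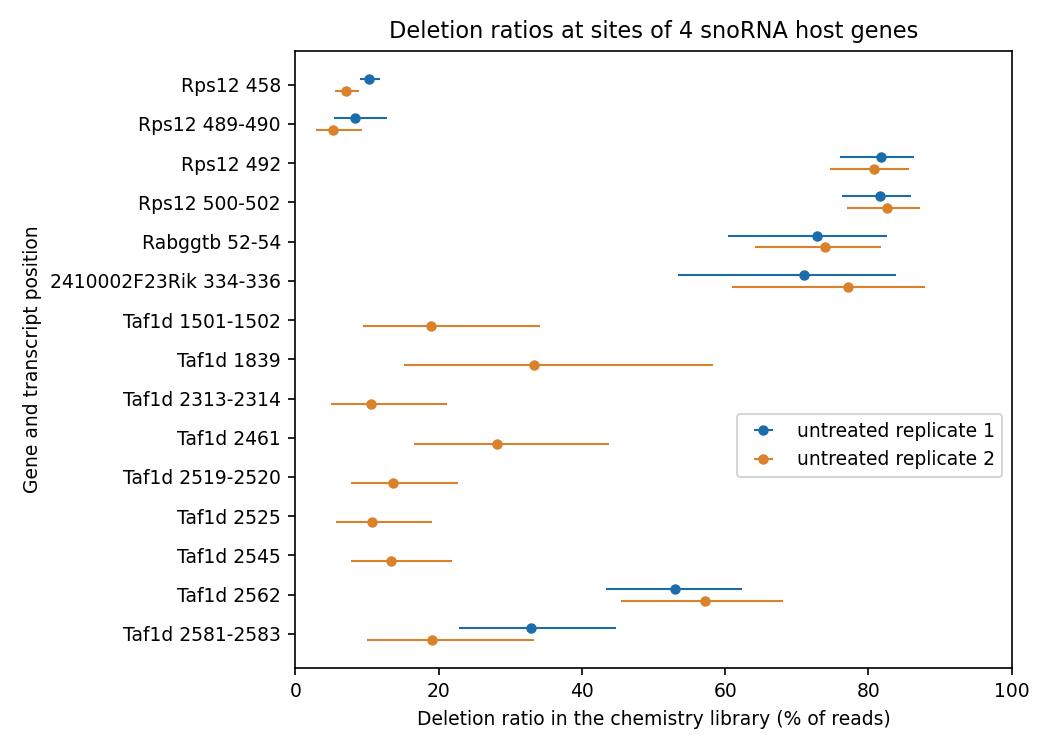
Deletion ratio of the chemistry library (x axis, percent of reads) at each of the 15 sites (y axis, gene and transcript position) in untreated replicates 1 and 2, with Wilson 95% intervals. Rps12 492, Rps12 500-502, Rabggtb 52-54 and 2410002F23Rik 334-336 sit above 70% in both replicates, and 7 Taf1d sites have a point in replicate 2 alone.

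Rps12 carried both the highest and the lowest levels of the 4 genes. Its 4 sites were on chromosome 10, minus strand (GRCm39). At position 492 of transcript NM_001407444.1 (chromosome 10, 23661350) the level was 81.7% in replicate 1 and 80.7% in replicate 2, a mean of 81.2% ± 0.711 (SD, n = 2). The replicates differed there by 1.01 points, less than the width of either counting interval (Wilson 95% limits 76.1% to 86.3% in replicate 1 and 74.6% to 85.7% in replicate 2). Positions 500 to 502 of the same transcript (23661340) had 81.1% in replicate 1 and 82.6% in replicate 2 (81.9% ± 1.05). These sites lay 7 bases apart.

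A site of low level stood beside this pair. At positions 489 to 490 of the transcript (23661352) the level was 7.83% in replicate 1 and 5.24% in replicate 2 (6.53% ± 1.83, SD, n = 2), although only 1 base separates it from position 492. Its 216 and 191 chemistry reads in replicates 1 and 2 were nearly as many as the 219 and 192 at position 492, and the mean level at position 492 was 12.4 times that of the low site. Of the 79 pairs of sites in the whole table that lay within 10 bases of each other and were listed in both replicates, 2 differed by a factor above 10, and the median factor was 1.65. A read can cover both positions and where the aligner placed a deletion was not tested. The 3 sites together occupied 14 bases of the transcript.

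The remaining Rps12 site was assigned to another transcript, NM_001407441.1, at position 458 (23661525), and it lay 173 bases upstream of the low site in the genome. It was the deepest of all 15 sites in both replicates, with 1749 chemistry and 1057 control reads in replicate 1 and 928 chemistry and 1825 control reads in replicate 2. The level was 10.3% in replicate 1 and 6.95% in replicate 2 (8.65% ± 2.40, SD, n = 2). It was thus a well-covered site of low level, whereas the pair of high level downstream rested on fewer reads.

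Taf1d held 9 sites, the second most of any of the 197 coding genes in the table after Lars2 with 19. This rank counts every listed site, and 2 of the 9 were listed in both replicates. All 9 were on transcript XM_036155366.1, between positions 1501 and 2583 (chromosome 9, plus strand, 15226845 to 15227926 in GRCm39). Distances between neighbouring sites were equal in the transcript and in the genome for all 9, which spread over 1081 bases, and the coordinates thus show no intron taken out between them. The sites were not evenly spaced. Gaps of 336, 473 and 146 bases separated the first 4, and 57 bases followed, whereas the last 5 sites were packed into 65 bases, with 4, 19, 16 and 18 bases between neighbours.

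The highest Taf1d level was found within this packed group. At position 2562 (15227905) it was 52.9% in replicate 1 (Wilson 95% limits of the deletion ratio 43.3% to 62.3%) and 57.1% in replicate 2 (45.5% to 68.1%), a mean of 55.04% ± 2.97 (SD, n = 2). Positions 2581 to 2583 (15227926), next to it on the downstream side, had 32.8% in replicate 1 (22.8% to 44.7%) and 19.0% in replicate 2 (9.98% to 33.3%), a mean of 25.9% ± 9.75. This was the largest difference between replicates among the 4 genes, and the intervals overlapped. On the upstream side the next sites were lower, with 13.3% at position 2545, 10.7% at position 2525 and 13.6% at positions 2519 to 2520, all from replicate 2.

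**Figure D2:**
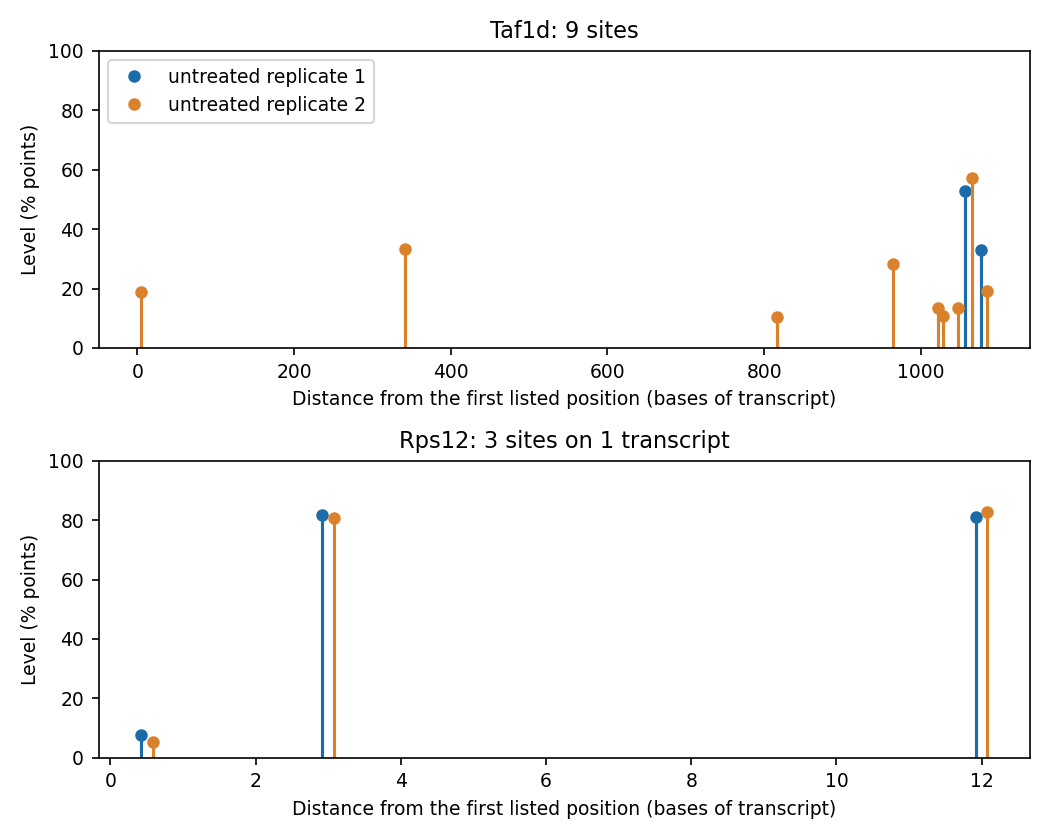
Level (y axis, percentage points) against distance from the first listed position in bases of the transcript (x axis) for the 9 Taf1d sites (top) and the 3 Rps12 sites on NM_001407444.1 (bottom), with replicates drawn slightly side by side. In Taf1d the last 5 sites crowd at the right end, where position 2562 is highest, and in Rps12 a low site stands beside 2 sites above 80%.

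The other Taf1d sites, farther upstream, also had values in replicate 2 alone. Positions 1501 to 1502 had 18.9% (7 of 37 chemistry reads, Wilson 95% interval 9.48% to 34.2%), position 1839 had 33.3% (5 of 15 reads, 15.2% to 58.3%), positions 2313 to 2314 had 10.5% (6 of 57 reads, 4.91% to 21.1%) and position 2461 had 28.2% (11 of 39 reads, 16.5% to 43.8%). These intervals overlapped one another. They cover counting error only, as is true of every interval given here.

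In all, 7 of the 9 Taf1d sites were listed in replicate 2 alone, and none in replicate 1 alone. Among the coding sites of other genes, 77 of 235 appeared in replicate 2 alone, against 50 that replicate 1 listed alone. Over all 755 sites, 146 (19.3%) appeared in replicate 2 alone and 109 in replicate 1 alone. A site that missed the deposited rules in a replicate carries no value for it, so the level in replicate 1 is unknown at these 7 positions. The depth of Taf1d differed in the control libraries. Position 2562 had 102 chemistry and 29 control reads in replicate 1, but 70 chemistry and 147 control reads in replicate 2. Positions 2581 to 2583 had 67 chemistry and 25 control reads in replicate 1, and 42 chemistry and 90 control reads in replicate 2.

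With so few control reads, a low level cannot pass the detection test. At 102 chemistry and 29 control reads with no control deletion, a site passed from 21 deletion reads, a level of 20.6%, and at 67 and 25 reads from 23.9%. Of the 7 sites listed in replicate 2 alone, 5 had a level there below either limit. In replicate 2, a site passed from 7.14% at the depth of position 2562 and from 11.9% at that of positions 2581 to 2583, a limit above the level of 2 of the 7 sites, which passed over more reads. Positions 1839 (33.3%) and 2461 (28.2%) were above both limits of replicate 1. The depth of the 7 sites in replicate 1 is unknown, and why they were not listed there was not tested.

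Rabggtb had 1 site, and it agreed closely between replicates. At positions 52 to 54 of NM_011231.2 (chromosome 3, minus strand, 153617787 in GRCm39) the level was 72.9% in replicate 1 (43 of 59 chemistry reads, Wilson 95% interval 60.4% to 82.6%) and 73.9% in replicate 2 (68 of 92 reads, 64.1% to 81.8%), a mean of 73.4% ± 0.730 (SD, n = 2). No deletion was found in 118 control reads of replicate 1 and 54 of replicate 2, which allows a ratio of up to 2.54% and 5.56% (3 reads of the total).

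2410002F23Rik also had a single site of high level, on the fewest chemistry reads of the 8 sites of the 4 genes listed in both replicates. At positions 334 to 336 of XM_030242908.1 (chromosome 7, plus strand, 43897581 in GRCm39) it had 70.8% in replicate 1 (22 of 31 chemistry reads, 53.4% to 83.9%) and 77.1% in replicate 2 (27 of 35 reads, 61.0% to 87.9%), a mean of 74.0% ± 4.50 (SD, n = 2). Its control libraries held many more reads, 513 in replicate 1 and 167 in replicate 2, with 1 deletion read in replicate 1 and none in replicate 2. Chemistry reads were 0.0604 times the control reads in replicate 1 and 0.210 times in replicate 2, the lowest ratios among the listed sites of the 4 genes in each replicate.

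**Figure D3:**
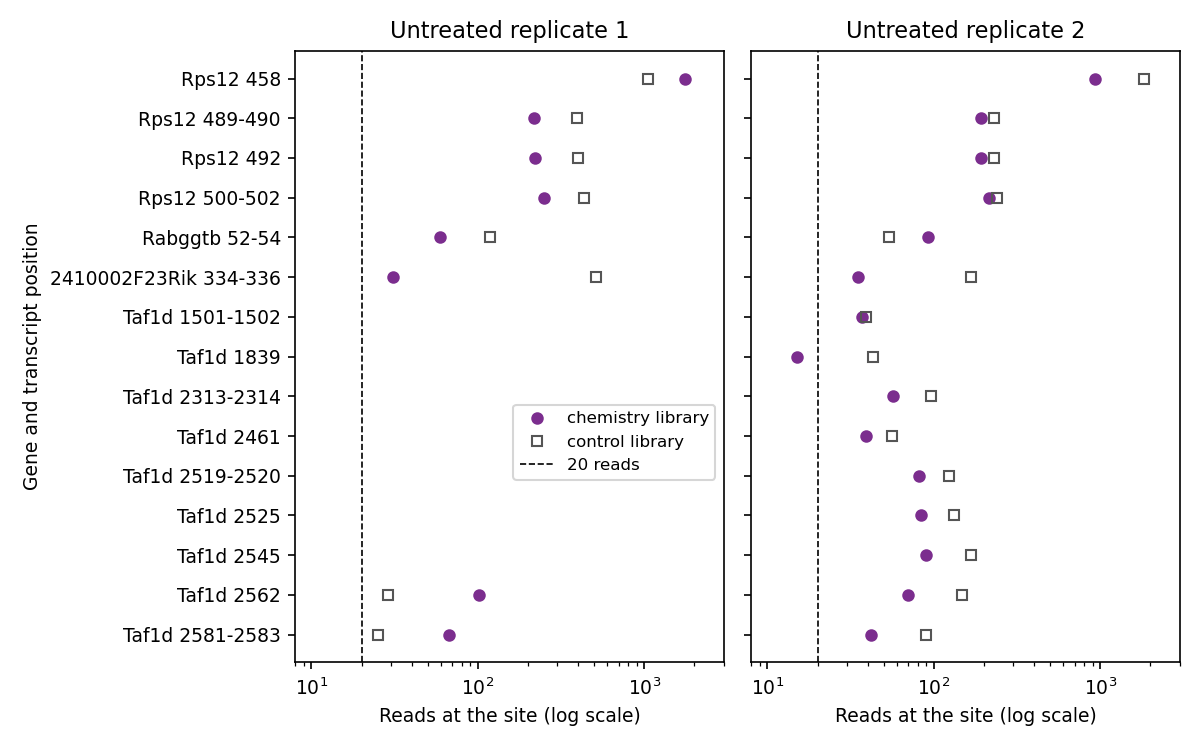
Reads covering each site (x axis, log scale) in the chemistry library (filled circles) and the control library (open squares) of untreated replicates 1 (left) and 2 (right), with a dashed line at 20 reads. Rps12 458 is the deepest site, Taf1d has 25 to 29 control reads where it has values in replicate 1, and Taf1d 1839 is the single point below the line.

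Detection above the control was examined next. A call in a replicate required 20 or more reads in each library, a level above 5 points, under 5% deletions in the control and a p below 0.005 in a two-sided Fisher exact test. In replicate 1, 8 of 8 listed sites of the 4 genes were called, beside 86.4% of all sites listed there. In replicate 2, 14 of 15 were called, beside 86.7% of all, and the exception was Taf1d position 1839 with 15 chemistry reads. In both replicates 8 of the 15 were called, beside 56.7% of the 755. The deposited sites had already passed nearly the same rules, and nothing is read from these shares. Control libraries were almost free of deletions at these sites. No control deletion was found at 5 of 8 sites in replicate 1, beside 354 of all 609 sites listed there. In replicate 2 this held at 14 of 15, beside 408 of all 646. The highest control ratio in the 4 genes was 0.505%, at Rps12 positions 489 to 490 in replicate 1. The shallowest control, at Taf1d positions 2581 to 2583 in replicate 1, had 0 deletions in 25 reads, which allows a ratio of up to 12% (3 reads of the total).

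Replicates were compared by a two-sided Fisher exact test on the deletion and other reads of the chemistry libraries, over the 441 sites of the table with at least 20 of these reads in each replicate. None of the 8 sites of the 4 genes differed after Benjamini-Hochberg adjustment, beside 2.27% of all sites tested. At an unadjusted p under 0.05 there was 1, beside 12% of all. This was Rps12 position 458 (Fisher exact p = 0.00395, adjusted p = 0.0918), the deepest site, where replicate 2 minus replicate 1 was -3.40 points. At Taf1d positions 2581 to 2583 the difference of -13.8 points was larger but rested on 67 and 42 reads (Fisher exact, adjusted p = 0.657). The test sets 1 sample against 1 sample and covers read sampling alone.

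Chemistry reads at the 8 sites had a median ratio of replicate 2 to replicate 1 of 0.864, with a range from 0.531 at Rps12 position 458 to 1.56 at Rabggtb. The 492 other sites listed in both replicates had a median of 1.06. Among these, the median was lower at coding sites of other genes (0.644) and at other coding snoRNA hosts (0.614). These reads were not normalized, and library totals were not analysed. Library depth, fewer cells of a type and less RNA per cell cannot be told apart in such read numbers, and none was tested.

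Where the levels stood among other sites is given as a description. Over the 8 sites listed in both replicates the median of the mean level was 64.2%, with 5 of 8 sites above 50%. For coding sites of other genes the median was 21.0% over 108 sites, of which 34 were above 50%. Many of these 34 sites belonged to Lars2 alone, the gene with 19 sites in the table. Mean levels in Lars2 ranged from 10.2% to 90.0%, and the share without this gene was not analysed. Over all 500 sites listed in both replicates the median was 33.1%, and 182 were above 50%. Among the 92 coding sites called in both replicates, ordered from the highest level, Rps12 positions 500 to 502 ranked 10, Rps12 position 492 ranked 11, 2410002F23Rik ranked 17 and Rabggtb ranked 19. Taf1d position 2562 ranked 23 and positions 2581 to 2583 ranked 35, while the other Rps12 sites ranked 69 and 82. The neighbours in this order that belong to the 4 genes did not differ beyond their spread at the top, where 81.9% ± 1.05 and 81.2% ± 0.711 in Rps12 overlapped, as did 74.0% ± 4.50 in 2410002F23Rik and 73.4% ± 0.730 in Rabggtb.

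Other coding genes that hold snoRNA genes had mostly low levels. By their position in the gene table and a list of known hosts, 15 other host genes had 16 sites, of which 11 were listed in both replicates, with a median of 9.84%. The 5 highest of those called in both replicates were Ep400, a chromatin remodeller (21.1% ± 2.85, SD, n = 2, positions 878 to 879), Atp5b, a subunit of ATP synthase (13.2% ± 2.09, position 1006), the translation elongation factors Eef1b2 (11.8% ± 3.30, position 734) and Eef2 (11.3% ± 1.68, positions 1289 to 1291), and the ribosomal protein gene Rpl10 (9.84% ± 0.0929, positions 582 to 584). Their range down to 6.47% in Rack1, a ribosome-bound scaffold protein, took in the lower 2 Rps12 sites. A further host, the glycosyltransferase gene Mgat5, had 77.3% in replicate 1 and 92.3% in replicate 2 at positions 3552 to 3553 over 22 and 26 chemistry reads but too few control reads to be called. Mgat5 and Ep400 counted as hosts by position alone, without a check of strand. Dkc1, which encodes the Ψ synthase of H/ACA particles, had 85.7% in replicate 2 alone over 7 chemistry reads. Mgat5 and Dkc1 were singled out after their values were seen.

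**Figure D4:**
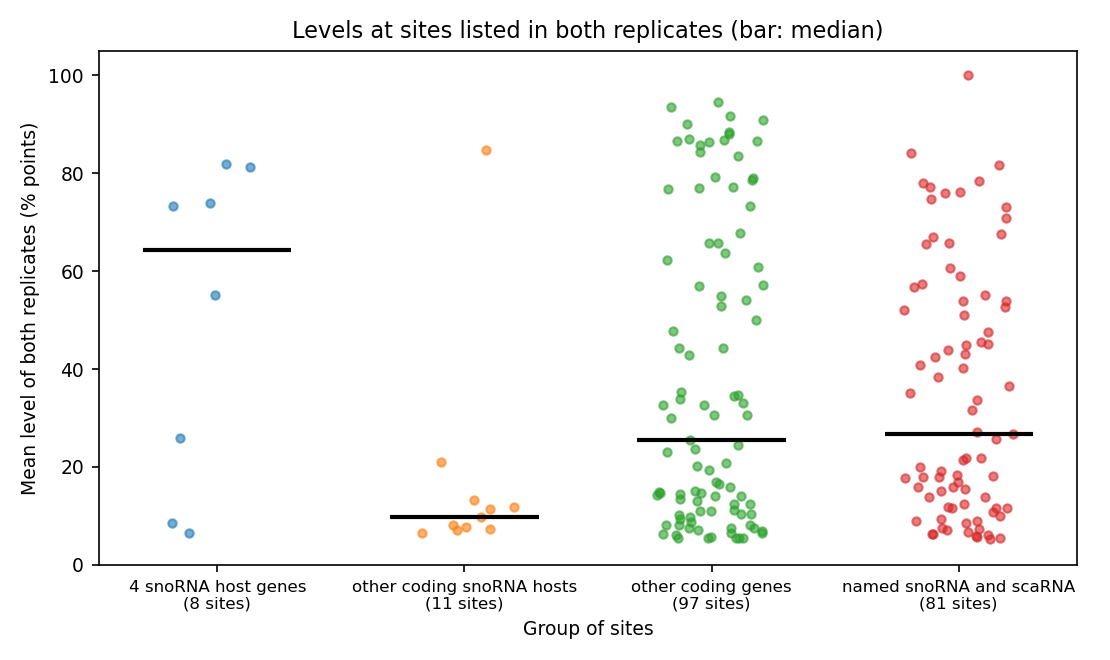
Mean level of both replicates (y axis, percentage points) at sites listed in both, for the 4 host genes (8 sites), other coding snoRNA hosts (11 sites), other coding genes (97 sites) and named snoRNA and scaRNA genes (81 sites), with a bar at each median. The medians are 64.2%, 9.84%, 25.5% and 26.8%, and the other hosts sit at or below 21.1% except for Mgat5 at 84.8%.

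Sites of named snoRNAs and of scaRNAs, the related guide RNAs of Cajal bodies, had a median of 26.8% over 81 sites listed in both replicates, with 25 of them above 50%. The table also listed non-coding RNA genes in or near the 4 host genes. Their rows are separate from those of the host transcripts, but whether reads of these RNAs were assigned to the hosts or the reverse was not tested.

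At the Rabggtb locus, Gm24494, an snoRNA gene inside Rabggtb, had 3 sites on the same strand, 484 to 515 bases downstream of the Rabggtb site. Gm24494 had 71.2% in replicate 1 and 73.8% in replicate 2 at positions 54 to 56 (72.5% ± 1.83, SD, n = 2), which overlaps the 73.4% ± 0.730 of Rabggtb. It had 38.8% and 48.3% at positions 24 to 25 (43.6% ± 6.73), and 9.61% and 9.02% at position 48 (9.32% ± 0.421). In the order of the gene table, the Rabggtb site lay on the side of Gm24494 that faces Snord45c.

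Upstream of the Taf1d sites but within the span of the Taf1d transcript, whose first listed site was at position 1501, lay the non-coding RNA Gm25791. It had its sites 604 to 622 bases before that first Taf1d site. Its position 83 had 80.3% in replicate 1 and 78.9% in replicate 2 (79.6% ± 0.955), and positions 90 to 92 had 64.0% and 80.5% (72.3% ± 11.6), over 68 and 41 chemistry reads. Positions 99 to 101 had 5.80% in replicate 1 alone. This low site lay within 10 bases of positions 90 to 92. Another non-coding RNA, Gm24455, had 8.11% at positions 80 to 81 in replicate 2 alone, 1667 bases upstream of the first Taf1d site.

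Near Rps12, the non-coding RNA Gm23130 lay 894 bases upstream of position 458 and had 70.3% in replicate 1 and 71.4% in replicate 2 at its position 23 (70.9% ± 0.774). At the 2410002F23Rik locus the listed non-coding RNA genes were farther away and were chosen after their values were seen. Snord88a, 2043 bases downstream of the 2410002F23Rik site, had deletions in 2 of 2 and 4 of 4 chemistry reads at positions 49 to 51. Gm23991, at 2339 to 2361 bases downstream, had 93.7% in replicate 1 and 98.0% in replicate 2 at positions 67 to 69, and 19.0% and 15.7% at position 47.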

How the data were processed

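The members and lists were chosen with earlier results of these data known. Per the labels and the study's methods, the authors prepared stranded total RNA libraries after removal of ribosomal RNA, although the labels name polyA RNA. The submitters' processing notes name the GRCm39 build, cutadapt (version 4.2) and UMI-tools (version 1.0.0). Reads were collapsed, thinned to a common size and aligned to RefSeq transcripts with PRAISE-tool by the authors.

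The deposited counts were deletion and total reads per site in the chemistry and control libraries, without normalization. The deposited deletion ratios and modification level were fractions of total reads, and the deposited p-values, unadjusted, compared chemistry with control reads in a contingency table. Levels here were recomputed from the counts, and the deposited fractions and p-values were not used. A replicate's values were kept by the authors only where p-value, control ratio and level passed their rules. Depth is known per site, and library totals were not analysed here. Sites stored as calendar dates by a spreadsheet (20, none in the 4 genes) were read back as month and day.

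Computations used Python 3.11.15, NumPy 2.4.6, SciPy 1.17.1, pandas 2.3.3 and Matplotlib 3.10.9. Fisher exact tests (two-sided) were run over the whole table, with Benjamini-Hochberg adjustment for the replicate test, and were tested on simulated data. Every site of the 4 genes was named, with the 5 highest called sites of other coding snoRNA hosts and all rows within 2000 bases on the same strand. A host was a gene on a hand-written list or a coding gene with an snoRNA gene inside its bounds in the GRCm38.p6 table. Coordinates are those deposited.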

Additional observations from a re-analysis of the deposited data

How the results depend on the processing

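The 8 sites called in both replicates became 5 at a minimum of 50 reads, where 2410002F23Rik and both Taf1d sites fell out for depth, and in replicate 1 alone the count also became 5. A minimum of 10 reads, a level over 10 points, a chi-square test with continuity correction and p under 0.001 kept all 3 counts within 1.5 times, from 6 to 8 in both replicates, from 7 to 8 in replicate 1 and from 12 to 15 in replicate 2. Rps12 position 458 was the 1 site that differed between replicates without adjustment, and none did with a minimum of 10 or 50 chemistry reads. The median level of 64.2% was 73.7% with the highest site of each gene, and likewise 73.7% without Taf1d, a setting chosen after seeing the data. It was 61.9% to 65.5% with either replicate left out. At the 8 sites with both replicates, none of 16 levels recomputed without subtraction of the control or from summed reads moved beyond the SD of the replicates. Leaving out 1 of 2 replicates cannot move a mean beyond that SD, and the largest factor was 1.36. The 7 Taf1d sites with 1 replicate have no such SD. No paired analysis was possible because values were at hand for untreated mice alone, and the comparison with RESTART v3 was not run for the same reason. Depth limits the Taf1d sites and 2410002F23Rik.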
